A study of Mus musculus with 2 samples.

Results

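The genes described here build and read the microtubule cytoskeleton: the alpha-, beta-, gamma- and epsilon-tubulins, the kinesin and dynein motors, the end-binding proteins and the stathmins. They were taken by gene symbol alone (Tuba, Tubb, Tubg, Tube, Dnah, Mapre or Stmn with a digit, Kif with a digit or c, Dync1, Dync2, and Dnal with a digit or i), which gave 81 of the 17134 genes in the table. RNA was sequenced from tuft cells of the small intestine, sorted from naive mice on EpCAM and Siglec-F, an epithelial and a tuft cell surface protein. One library came from Spibfl/flVillin-cre mice (Spib_KO), in which Cre recombinase made under the Villin promoter of the intestinal epithelium deletes the floxed Spib gene, and one from Spib+Villin-cre mice (WT), which also carry the transgene. Spib encodes Spi-B, an ETS family transcription factor. The age, the number of mice behind a library and the deleted part of Spib are not stated in the labels used here.

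Microtubules are hollow polymers of alpha- and beta-tubulin dimers, started from rings that hold gamma-tubulin. Kinesins mostly walk along them towards the plus end, or take filaments apart, and cytoplasmic dynein walks towards the minus end. Axonemal dyneins drive the beating of motile cilia, which intestinal tuft cells do not carry. Tuft cells have a tall apical tuft of microvilli with actin cores, and microtubules run beneath it towards the cell body.

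With 1 library per genotype no difference has a replicate check, and there are no p-values. The normalised read count (CPM) is the number of reads relative to a TMM-scaled library total, and it was used for the same gene between libraries. Levels of different genes were compared in the authors' deposited TPM, which is scaled for gene length. Measured genes had at least 5 CPM from at least 30 reads in either library. A measured gene was called where the 95% counting interval of its log2 ratio, Spib_KO over WT, lay wholly past a 2-fold difference, that is past 1 or -1. Such intervals stand in brackets. They cover the counting error of reads only, and not variation between mice. No molecular identifiers mark the molecules before amplification, so copies of 1 molecule can count as separate reads. The intervals can therefore be too narrow.

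The libraries held 17228665 reads assigned to genes in Spib_KO and 17925421 in WT. Spib itself had 48 reads in Spib_KO and 6266 in WT, or 2.80 CPM in Spib_KO and 348 CPM in WT. The sort markers Epcam, with 1653 CPM in Spib_KO and 1722 CPM in WT, and Siglecf, with 1048 CPM in Spib_KO and 953 CPM in WT, were high in both. Of 15 tuft cell marker genes, 15 were measured and 0 called, and Pou2f3, which tuft cells need to form, had 287 CPM in Spib_KO and 256 CPM in WT. Of the 15 tuft cell ratios 8 were above 0 and 7 below, with a median log2 ratio of 0.02 and a range from -0.73 to 1.07. Markers of several other cell types were not equal between the libraries. Summed over the lists, 12 Paneth cell markers gave 1113 CPM in Spib_KO and 2886 CPM in WT, 10 goblet cell markers 1474 CPM in Spib_KO and 2282 CPM in WT, 20 enteroendocrine markers 738 CPM in Spib_KO and 564 CPM in WT, 13 enterocyte markers 19291 CPM in Spib_KO and 17713 CPM in WT, and 12 T cell and intraepithelial lymphocyte markers 6.76 CPM in Spib_KO and 56.2 CPM in WT. The most abundant enterocyte marker was Fabp1, with 10611 CPM in Spib_KO and 6968 CPM in WT. Of the 13 enterocyte ratios 9 were below 0 and 4 above, with a median log2 ratio of -0.34. Among enteroendocrine markers 9 were measured, 5 of them lower and 2 of them higher, with a median of -2.35. The highest value of a single enteroendocrine marker was 533 CPM in Spib_KO and 404 CPM in WT. The hormone gene Gcg had 0 reads in Spib_KO and 316 in WT, while Cpe had 160 CPM in Spib_KO and 7.61 CPM in WT. Markers of B cells (4.43 CPM in Spib_KO and 6.06 CPM in WT) and of myeloid cells (21.5 CPM in Spib_KO and 29.8 CPM in WT) were low. The 10 markers of crypt stem and transit amplifying cells summed to 1144 CPM in Spib_KO and 1376 CPM in WT. Most of that sum was Olfm4, with 706 CPM in Spib_KO and 932 CPM in WT. Of the 9 measured crypt markers, 5 ratios were above 0 and 4 below, with a median of 0.01. In bulk RNA, fewer cells of a type and less RNA per cell cannot be told apart, and the part of these cells in the values below was not tested.

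Most of the microtubule genes had similar levels in both libraries. Of the 81 members, 51 were measured, 2 were called higher and 0 lower in Spib_KO. Over all 10707 measured genes, 2.33% were higher and 2.18% lower. The 2 higher members were Tubb2a, a beta-tubulin gene, and Tubg2, a gamma-tubulin gene. Deposited counts of both carry fractions, which shared reads can give, and without the 17 measured members of this kind 0 were higher and 0 lower. The median log2 ratio was 0.00 over the 51 measured members and 0.01 over all measured genes, and 80.4% of the members and 79.5% of all genes differed by less than 1.5-fold. Of the 51, 46 passed the expression filter in both libraries and 5 in only 1 of them, Tube1 in Spib_KO and Kif3c, Kif14, Kif26b and Dnah2 in WT. The 30 members under the filter reached at most 3.85 CPM in Spib_KO and 4.50 CPM in WT, with 9 of the 81 at 0 reads in Spib_KO alone and 5 in WT alone. Together the 81 members took 0.371% of all TPM in Spib_KO and 0.349% in WT.

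**Figure D1:**
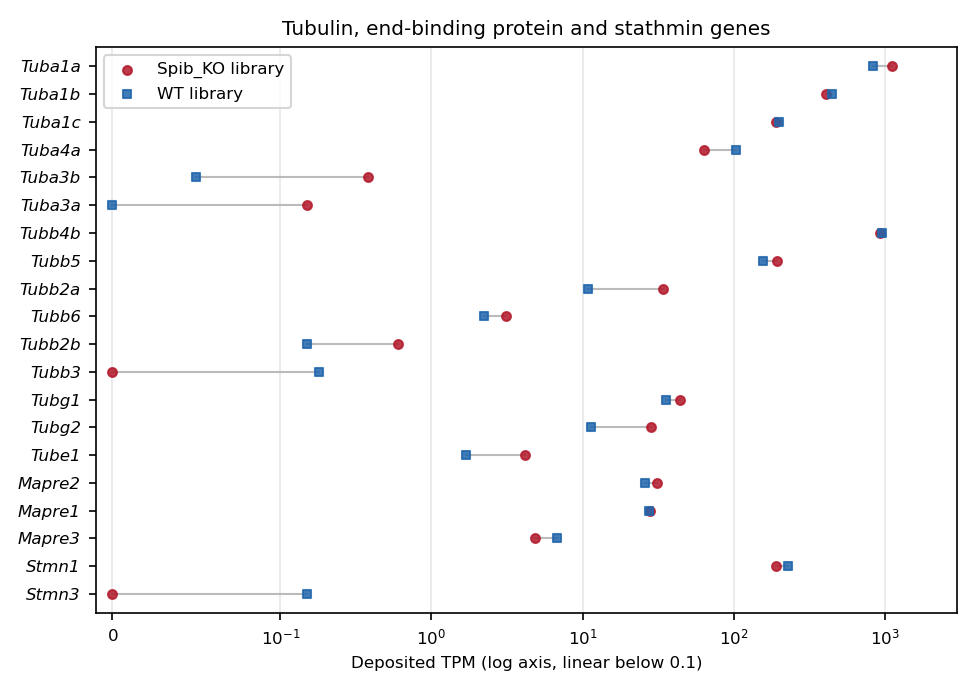
Deposited TPM (log axis, linear below 0.1) of every tubulin, end-binding protein and stathmin gene in the table, with a circle for the Spib_KO library and a square for the WT library, 1 library each. Tuba1a lies at 1117 TPM in Spib_KO and 836 TPM in WT, Tubb4b at 928 TPM in Spib_KO and 956 TPM in WT, and the points of Tubb2a, Tubg2 and Tube1 are set apart, with Spib_KO above WT.

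The DNA just before the start sites of both higher members is shown because Spi-B binds ETS sites, whose core is GGAA. Capitals mark each GGAA or its reverse complement TTCC. The Tubb2a sequence is the minus strand of chr13:34078009-34078258 and the Tubg2 sequence the plus strand of chr11:101155634-101155873, from the RefSeq promoter table of GRCm38.p6, without bases inside the annotated gene.

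Tubb2a: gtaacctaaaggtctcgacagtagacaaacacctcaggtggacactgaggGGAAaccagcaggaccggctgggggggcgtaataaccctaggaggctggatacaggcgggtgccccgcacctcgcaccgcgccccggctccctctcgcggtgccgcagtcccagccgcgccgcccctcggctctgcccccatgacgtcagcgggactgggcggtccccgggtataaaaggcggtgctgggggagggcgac
Tubg2: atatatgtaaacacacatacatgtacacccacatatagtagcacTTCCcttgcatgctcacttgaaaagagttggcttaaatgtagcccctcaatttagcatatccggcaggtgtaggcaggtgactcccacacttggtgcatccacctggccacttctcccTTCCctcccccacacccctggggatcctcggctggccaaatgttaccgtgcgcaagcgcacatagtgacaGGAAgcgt

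The Tubb2a stretch holds the core 1 time and the Tubg2 stretch 3 times. The core is a common word: read on both strands, it was found in the 250 bases before the start of 94.6% of 8702 measured genes with a promoter in the table, and of 38 of 41 measured members. The longer word GAGGAA, of the kind preferred by Spi-B and its relative PU.1 and itself holding the core, was in neither stretch. It was found on either strand in 25.1% of those measured genes and in 4 of the 41 measured members. A match is a description of these letters and not evidence of binding.

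Alpha-tubulin transcripts came almost wholly from 4 genes, and none of them was called. Tuba1a was the most abundant member in Spib_KO, with 1117 TPM in Spib_KO and 836 TPM in WT. Its counts were 21215 reads, or 1236 CPM, in Spib_KO and 16342 reads, or 908 CPM, in WT, a log2 ratio of 0.45 (0.42 to 0.47). Tuba1a made up 62.8% of alpha-tubulin TPM in Spib_KO and 52.8% in WT. Its neighbours on chromosome 15 did not share the difference. Tuba1b had 442 CPM in Spib_KO and 474 CPM in WT, a log2 ratio of -0.10 (-0.15 to -0.06), and Tuba1c had 269 CPM in Spib_KO and 276 CPM in WT, a ratio of -0.03 (-0.09 to 0.02).

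Tuba4a, an alpha-tubulin gene whose product ends without the tyrosine that other alpha-tubulins carry, was the one measured alpha-tubulin gene at least 1.5-fold apart. It had 97.3 CPM in Spib_KO and 156 CPM in WT, a log2 ratio of -0.68 (-0.77 to -0.60), short of the 2-fold rule. The exons of Tuba4a share 1379 of 3701 bases with Stk16, a kinase gene on the opposite strand, and this chemistry does not keep strand. Stk16 had 103 CPM in Spib_KO and 111 CPM in WT, a log2 ratio of -0.11 (-0.20 to -0.01), so the values of the pair were not alike. Tuba3a and Tuba3b, known from testis, had at most 7 reads in either library.

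Reads of the alpha-tubulin genes cannot be assigned with certainty. Of all 50-base windows of the transcript, 75.5% in Tuba1a, 83.1% in Tuba1b and 61.0% in Tuba1c occur in a transcript of another gene, and the deposited counts of the 3 genes are not whole numbers. The sum of reads over the family does not depend on how reads were split within it, and its log2 ratio was 0.17 (0.15 to 0.19). It can still depend on sharing with genes outside the table. Of the Tuba1a windows, 75.5% occur in another gene, but only 55.5% in another gene of the table. The summed level was 1778 TPM in Spib_KO and 1583.5 TPM in WT, which can depend on the split through gene length.

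Beta-tubulin was mostly Tubb4b, an isotype found in most tissues, which gave 80.1% of the family's TPM in Spib_KO and 84.99% in WT. Tubb4b had 1034 CPM in Spib_KO and 1045 CPM in WT, a log2 ratio of -0.02 (-0.05 to 0.01), one of the closest pairs of values in the set. Tubb5, the other widely expressed isotype, had 376 CPM in Spib_KO and 298 CPM in WT, a ratio of 0.34 (0.28 to 0.39). The family sum was 1159 TPM in Spib_KO and 1124 TPM in WT, and the log2 ratio of the summed reads was 0.10 (0.07 to 0.12). Of the 50-base windows of Tubb4b, 55.5% occur in a transcript of another gene, and 4.65% in another gene of the table.

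Tubb2a (gene 22151, chromosome 13, 34074278 to 34078008, GRCm38.p6) stood apart from the other beta-tubulin genes. It had 654 reads in Spib_KO and 215 in WT, or 38.1 CPM (35.2 to 41.1) in Spib_KO and 11.9 CPM (10.4 to 13.7) in WT. The log2 ratio was 1.67 (1.45 to 1.90), a 3.18-fold difference, which made it the furthest above of the measured members. Tubb2a is known as one of the main beta-tubulins of neurons. It was still a minor isotype, with 2.94% of beta-tubulin TPM in Spib_KO and 0.97% in WT. Its paralogue Tubb2b had 14 reads in Spib_KO and 4 in WT, and 49.6% of the 50-base windows of Tubb2a occur in other genes, mainly Tubb2b. The deposited counts of the pair add up to the whole numbers 668 in Spib_KO and 219 in WT, and the log2 ratio of this sum was 1.68 (1.46 to 1.90), so the division of reads within the pair does not affect it.

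Other neuronal or low-level beta-tubulin genes gave few reads. Tubb3, the isotype used as a marker of neurons, had 0 reads in Spib_KO, where the floor of 3 counts is the limit, and 4 in WT. Of 8 genes in the table from a list of enteric neuron and glia markers without Tubb3, 0 were measured, with sums of 1.17 CPM in Spib_KO and 7.11 CPM in WT. Tubb6 had 66 reads in Spib_KO and 48 in WT, or 3.85 CPM in Spib_KO and 2.67 CPM in WT.

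**Figure D2:**
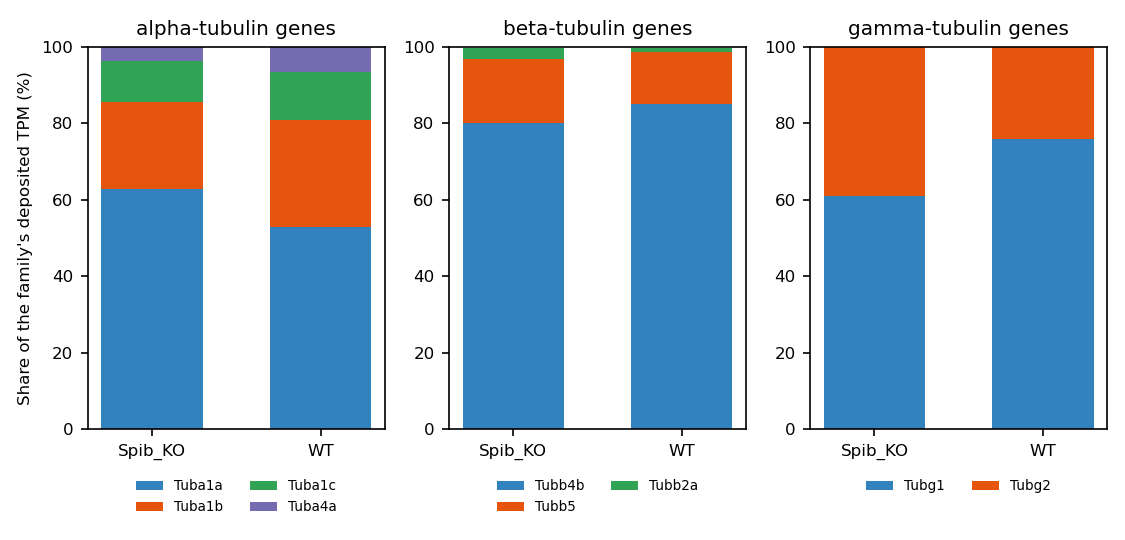
Share of each gene in the summed deposited TPM of its tubulin family (%), with the Spib_KO library on the left and the WT library on the right, 1 library each, and genes under 0.5% in both libraries left out. Tubg2 takes 39.1% of gamma-tubulin in Spib_KO and 24.2% in WT, and Tuba1a takes 62.8% of alpha-tubulin in Spib_KO and 52.8% in WT.

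Gamma-tubulin, which seeds new microtubules, is encoded by a pair of neighbouring genes on chromosome 11, and Tubg2 was called higher. Tubg2 (gene 103768, 101155874 to 101161787, GRCm38.p6) had 586 reads in Spib_KO and 251 in WT, or 34.1 CPM (31.4 to 37.0) in Spib_KO and 13.9 CPM (12.3 to 15.8) in WT. The log2 ratio was 1.29 (1.08 to 1.51), a 2.45-fold difference, and its lower bound was the closest to the threshold among the called members. Tubg1, in mouse the more widely needed of the pair, had 50.9 CPM in Spib_KO and 39.95 CPM in WT, a ratio of 0.35 (0.21 to 0.49).

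The pair together had 1460 expected reads in Spib_KO and 970 in WT, a log2 ratio of 0.66 (0.54 to 0.78), which is not past the 2-fold rule. The counts of Tubg1 and Tubg2 are not whole and add up to whole numbers in each library, and 14.3% of the 50-base windows of Tubg2 also occur in Tubg1. So the sum does not rest on how shared reads were divided, whereas the value of Tubg2 alone does in part.

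The other parts of the gamma-tubulin ring did not differ as Tubg2 did. Of 11 genes of that complex and its anchors, 11 were measured and 0 called, and their median log2 ratio was -0.09. The ring subunit gene Tubgcp2 had 27.3 CPM in Spib_KO and 30.2 CPM in WT, and Tubgcp3 had 41.3 CPM in Spib_KO and 43.6 CPM in WT. The furthest from 0, and the most abundant in TPM, was Mzt2, a small adaptor of the ring, with 34.1 CPM in Spib_KO and 21.5 CPM in WT, a ratio of 0.66 (0.48 to 0.85). Akap9, an anchor of the ring at the Golgi and centrosome, had 283 CPM in Spib_KO and 270 CPM in WT.

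Tube1 encodes epsilon-tubulin, a rare tubulin needed for centriole structure. It had 154 reads in Spib_KO and 65 in WT, or 8.97 CPM (7.61 to 10.5) in Spib_KO and 3.61 CPM (2.79 to 4.604) in WT. The log2 ratio of 1.31 (0.89 to 1.75) was larger than that of Tubg2, but with fewer reads its interval reached below 1 and Tube1 was the nearest member outside the rule on the higher side. Its exons share 482 of 7838 bases with Ccn6, which had 0 reads in Spib_KO and 11 in WT.

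Kinesins covered a wide range of levels and none was called. There were 39 genes in the table and 28 of them were measured, with a median log2 ratio of -0.05, and 24 of the 28 differed by less than 1.5-fold. Kif5b, the heavy chain of conventional kinesin that carries vesicles and mitochondria, was the most abundant, with 71.9 TPM in Spib_KO and 72.8 TPM in WT. Its counts were 5732 reads in Spib_KO and 6028 reads in WT, or 334 CPM in Spib_KO and 335 CPM in WT, a log2 ratio of 0.00 (-0.06 to 0.05). Its neuronal relative Kif5a had 13 reads in Spib_KO and 0 in WT, 4.54-fold higher when WT is set at the floor of 3 counts and at least 3.20-fold higher by the counting interval, and it was not measured by the rule. Next in TPM came Kif22, a chromosome-binding motor, with 43.5 TPM in Spib_KO and 42.7 TPM in WT.

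**Figure D3:**
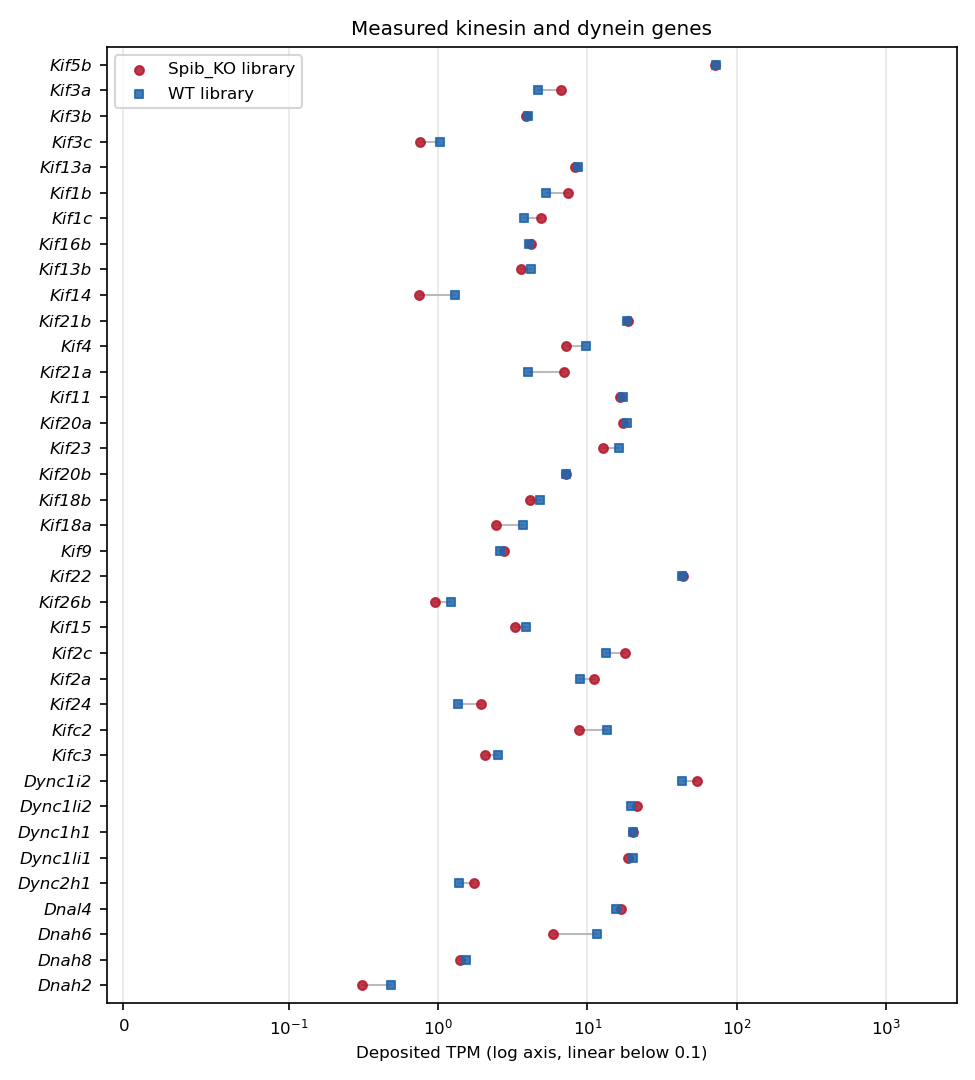
Deposited TPM (log axis, linear below 0.1) of the measured kinesin and dynein genes, ordered by family, with a circle for the Spib_KO library and a square for the WT library, 1 library each. Kif5b leads the kinesins at about 72 TPM in both libraries, and the widest gaps among genes above 1 TPM in both libraries are those of Dnah6, with 5.83 TPM in Spib_KO and 11.6 TPM in WT, and Kif21a, with 6.97 TPM in Spib_KO and 3.97 TPM in WT.

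The transport kinesins went both ways by small amounts. Of 14 genes of families that carry cargo, 11 were measured and 10 of these differed by less than 1.5-fold. The exception was Kif21a, a motor that restrains microtubule growth at the cell edge, with 634 reads in Spib_KO and 365 in WT. That is 36.9 CPM (34.1 to 39.9) in Spib_KO and 20.3 CPM (18.3 to 22.5) in WT, a log2 ratio of 0.86 (0.68 to 1.05). Its close relative Kif21b was the third kinesin in TPM and showed no such gap, with 133 CPM in Spib_KO and 130 CPM in WT, a ratio of 0.04 (-0.05 to 0.12).

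The measured vesicle motors of the kinesin-3 group differed by less than 1.5-fold. Kif1b had 54.9 CPM in Spib_KO and 39.2 CPM in WT, a log2 ratio of 0.48 (0.34 to 0.63), and Kif1c, a motor of Golgi and other vesicles, had 25.5 CPM in Spib_KO and 19.3 CPM in WT, a ratio of 0.40 (0.19 to 0.61). Kif13a had 45.0 CPM in Spib_KO and 47.7 CPM in WT, Kif13b 25.1 CPM in Spib_KO and 27.7 CPM in WT, and Kif16b, a motor of early endosomes, 22.3 CPM in Spib_KO and 21.3 CPM in WT. The intervals of these last 3 ratios all include 0. Kif1a, the neuronal member, had 0 reads in Spib_KO and 5 in WT.

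Kinesin-2, the motor that moves cargo into cilia and along cell microtubules, works as a pair of Kif3 motors with the accessory protein Kifap3. Kif3a had 28.4 CPM in Spib_KO and 19.3 CPM in WT, a log2 ratio of 0.56 (0.36 to 0.76), and its partner Kif3b had 16.7 CPM in Spib_KO and 17.2 CPM in WT, a ratio of -0.04 (-0.28 to 0.19). Kif3c, an alternative partner, had 68 reads in Spib_KO and 97 in WT, a ratio of -0.44 (-0.91 to 0.02). The motor genes were not called. Kifap3, which the symbols above do not take in, was called higher. Kifap3 (gene 16579, chromosome 1) had 149 reads in Spib_KO and 33 in WT, or 8.68 CPM in Spib_KO and 1.83 CPM in WT, a log2 ratio of 2.23 (1.69 to 2.83). It passed the expression filter in Spib_KO alone.

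Kifap3 was the one called gene among 11 measured genes for kinesin light chains and cargo adaptors, whose median log2 ratio was 0.12. Over all measured genes 2.33% were called higher and 2.18% lower. The adaptor gene Trak1, which links mitochondria to kinesin, was the most abundant, with 577 CPM in Spib_KO and 563 CPM in WT. The main light chain gene was Klc4, with 183 CPM in Spib_KO and 168 CPM in WT, a ratio of 0.12 (0.05 to 0.19). Klc3 had 45 reads in Spib_KO and 8 in WT and was not measured.

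Kinesins of cell division were present in both libraries at similar levels. Of 12 such genes 11 were measured, the median log2 ratio was -0.20, and their summed reads gave a ratio of -0.08 (-0.13 to -0.03). Kif11, which pushes spindle poles apart, had 60.8 CPM in Spib_KO and 63.5 CPM in WT. Kif20a, a motor of the dividing cell's midzone, had 45.2 CPM in Spib_KO and 47.6 CPM in WT, and Kif23, another midzone motor, had 32.0 CPM in Spib_KO and 40.4 CPM in WT, a ratio of -0.34 (-0.50 to -0.17). Kif22 had 64.7 CPM in Spib_KO and 62.4 CPM in WT, and Kif20b had 30.4 CPM in Spib_KO and 28.7 CPM in WT. Among these 5 motors, only the interval of Kif23 leaves out 0.

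The remaining division motors spread further. Kif4, which acts on the chromosomes and the midzone, had 25.6 CPM in Spib_KO and 34.8 CPM in WT, a log2 ratio of -0.45 (-0.62 to -0.27). Kif14, needed for the last step of division, had 74 reads in Spib_KO and 147 in WT, a ratio of -0.92 (-1.34 to -0.51). Kif18a, which shortens chromosome fibres of the spindle, had 106 reads in Spib_KO and 167 reads in WT, a ratio of -0.59 (-0.95 to -0.23), while Kif18b had 177 reads in Spib_KO and 214 reads in WT. Kif15, a helper of Kif11, had 12.1 CPM in Spib_KO and 14.2 CPM in WT. In the other direction lay Kif2c, which takes microtubules apart at the centromere, with 37.2 CPM in Spib_KO and 27.3 CPM in WT, a ratio of 0.44 (0.27 to 0.62).

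Outside the motor families, 28 of 28 proliferation markers were measured and 0 called, with a median log2 ratio of 0.00. Birc5, which acts at the centromere and midzone, had 80.7 CPM in Spib_KO and 87.2 CPM in WT, Cdc20, an activator of the exit from mitosis, 148 CPM in Spib_KO and 143 CPM in WT, and Mki67 88.7 CPM in Spib_KO and 72.6 CPM in WT. The word TTTGAA, known as an element of genes active late in the cell cycle, was found on either strand in the 250 bases before the start of 5 of 11 division kinesins with a promoter in the table. The same word was found in 13.2% of measured genes. This is a count of letters with no test.

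The kinesin-13 relatives of Kif2c were close in ratio to it. Kif2a had 31.6 CPM in Spib_KO and 25.4 CPM in WT, a log2 ratio of 0.32 (0.14 to 0.50), and Kif24, which acts at the mother centriole, had 10.1 CPM in Spib_KO and 8.002 CPM in WT, a ratio of 0.33 (0.01 to 0.66). Of the exon bases of Kif2a, 19.2% overlap Dimt1 on the opposite strand, and Dimt1 had a ratio of 0.78 (0.50 to 1.07). Kif2b had 0 reads in Spib_KO and 5 in WT.

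Kinesin-14 motors walk towards the minus end, and none was called. Kifc2 had 20.8 CPM in Spib_KO and 31.8 CPM in WT, a log2 ratio of -0.61 (-0.81 to -0.42), and Kifc3 had 5.42 CPM in Spib_KO and 6.22 CPM in WT, a ratio of -0.20 (-0.61 to 0.21). Kifc1 and its near copy Kifc5b together had 55 reads in Spib_KO and 64 in WT. Of smaller families, Kif9 had 6.76 CPM in Spib_KO and 5.78 CPM in WT, and Kif26b, a kinesin without motor activity, had 4.72 CPM in Spib_KO and 6.89 CPM in WT, a ratio of -0.54 (-0.97 to -0.13). Kif12, known from kidney and other epithelia, was under the filter, with 10 reads in Spib_KO and 65 in WT, a ratio of -2.57 (-3.76 to -1.66).

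**Figure D4:**
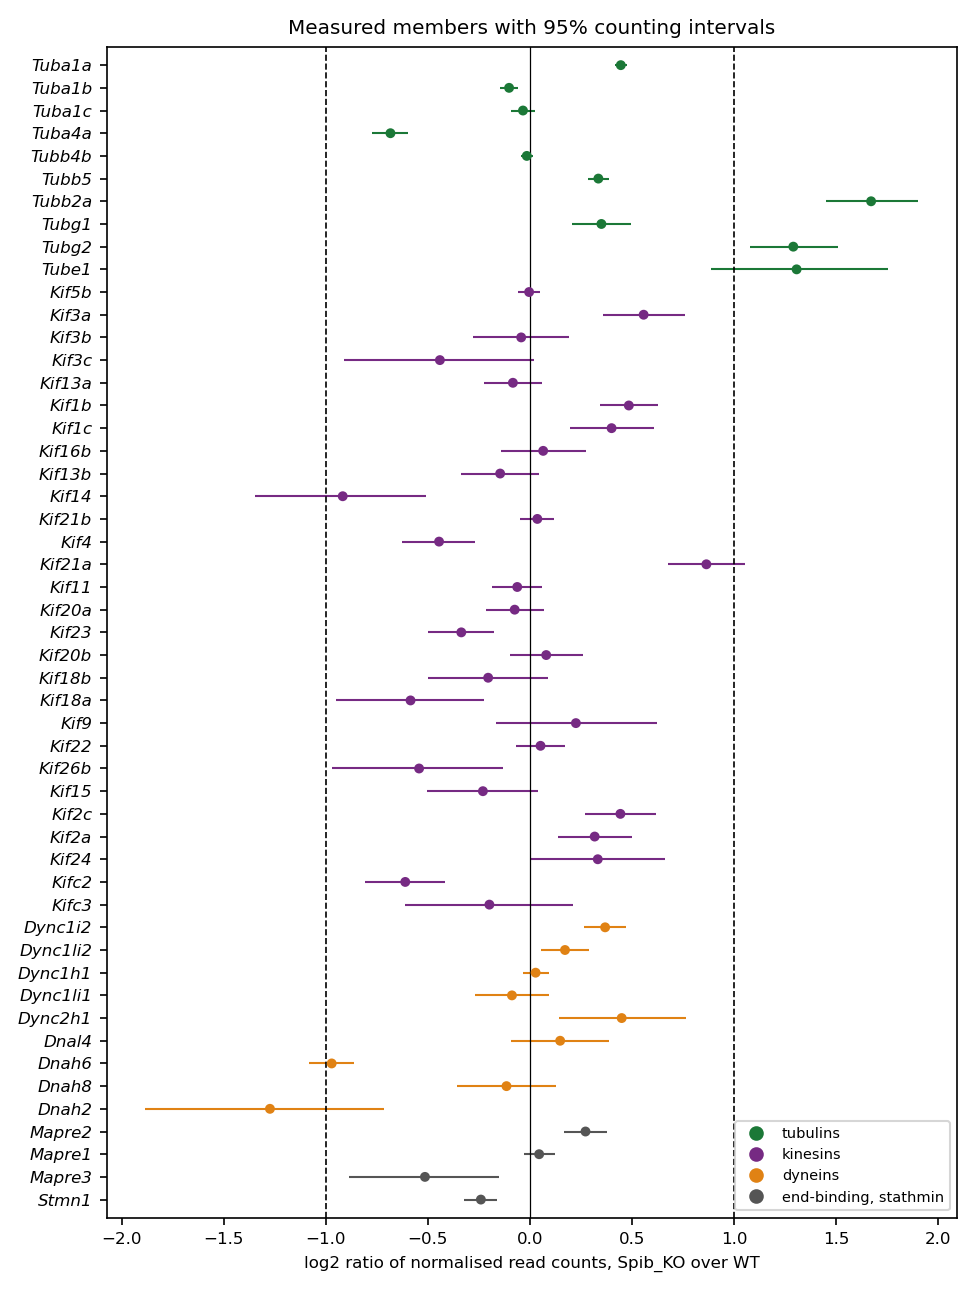
Log2 ratio of normalised read counts, Spib_KO over WT, for the 51 measured members in order of family, with 95% counting intervals as bars and dashed lines at a 2-fold difference. Only the intervals of Tubb2a and Tubg2 lie wholly past a dashed line, while those of Tube1, Kif21a, Kif14, Dnah6 and Dnah2 cross one.

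Cytoplasmic dynein 1, the main minus-end motor, was nearly equal between the libraries. The heavy chain gene Dync1h1 had 3939 reads in Spib_KO and 4052 in WT, or 230 CPM in Spib_KO and 225 CPM in WT, a log2 ratio of 0.03 (-0.04 to 0.09). The light intermediate chain genes Dync1li1 and Dync1li2 had ratios of -0.09 (-0.27 to 0.09) and 0.17 (0.06 to 0.29). Dync1i2, the intermediate chain that binds dynactin, had 102 CPM in Spib_KO and 78.9 CPM in WT, a ratio of 0.37 (0.27 to 0.47). Dynactin, the partner complex of the motor, had 12 of 12 listed genes measured, 0 called and a median of -0.04, and its largest subunit gene Dctn1 had 108 CPM in Spib_KO and 116 CPM in WT. The most abundant in TPM were Dctn3, with 239 CPM in Spib_KO and 208 CPM in WT, and Capzb, a capping protein shared with actin, with 319 CPM in Spib_KO and 359 CPM in WT.

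The light chains that dynein shares with other complexes had mostly higher values in Spib_KO. Of 8 measured genes 0 were called, 7 had a ratio above 0 and the median was 0.47. Dynlrb1, the most abundant of them in TPM, had 268 CPM in Spib_KO and 215 CPM in WT, a ratio of 0.32 (0.26 to 0.38). Dynlt1c had 169 CPM in Spib_KO and 97.3 CPM in WT, a ratio of 0.80 (0.71 to 0.88), and it is one of several near-identical copies that share reads, so these genes do not count as separate observations. Of 15 measured dynein regulators and adaptors 0 were called and the median was 0.02, and the most abundant in TPM were Hook2, a cargo adaptor, with 191 CPM in Spib_KO and 225 CPM in WT, and Ndel1, a dynein regulator, with 53.5 CPM in Spib_KO and 54.0 CPM in WT.

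Cytoplasmic dynein 2 carries cargo out of cilia and was expressed at a low level. Its heavy chain gene Dync2h1 had 202 reads in Spib_KO and 155 in WT, or 11.8 CPM in Spib_KO and 8.61 CPM in WT, a log2 ratio of 0.45 (0.14 to 0.76). Dync2li1 had 45 reads in Spib_KO and 38 reads in WT. The intermediate chain genes stand in the table under older symbols that the choice by symbol does not take in. Of these, Wdr60 had 139 reads in Spib_KO and 329 in WT, a ratio of -1.17 (-1.47 to -0.88), and Wdr34 had 240 reads in Spib_KO and 230 reads in WT, a ratio of 0.13 (-0.14 to 0.40). Of 26 measured genes for intraflagellar transport and cilia, Wdr60 and Wdr34 included, 0 were called and the median was 0.18. The most abundant of them in TPM were Ift20, with 43.1 CPM in Spib_KO and 45.5 CPM in WT, and Ift43, with 29.1 CPM in Spib_KO and 22.6 CPM in WT.

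Axonemal dynein genes were mostly near zero, and only Dnah6 was at an appreciable level among the heavy chains. Dnah6 (gene 330355, chromosome 6, 73017603 to 73222227, GRCm38.p6) had 990 reads in Spib_KO and 2036 in WT, or 57.7 CPM (54.2 to 61.4) in Spib_KO and 113 CPM (108 to 118) in WT. The log2 ratio was -0.97 (-1.08 to -0.86), a 1.96-fold difference, and it was the nearest measured member outside the rule on the lower side. In TPM, Dnah6 had 5.83 in Spib_KO and 11.6 in WT. Dnah8 was next among the heavy chains, with 15.4 CPM in Spib_KO and 16.7 CPM in WT, a ratio of -0.12 (-0.36 to 0.13), so it did not share the gap.

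Some of the rarer heavy chains also had fewer reads in Spib_KO. Dnah2 had 36 reads in Spib_KO and 92 in WT, a log2 ratio of -1.27 (-1.88 to -0.71), and 0.31 TPM in Spib_KO and 0.48 TPM in WT. Dnah5 had 0 reads in Spib_KO and 81 in WT, 25.7-fold lower when Spib_KO is set at the floor of 3 counts and at least 20.5-fold lower by the counting interval, and with 4.50 CPM in WT it stayed just under the filter. Dnah7b had 0 reads in Spib_KO and 23 reads in WT, 7.31-fold lower against the same floor and at least 5.48-fold lower by the counting interval, and it shares 48.4% of its 50-base windows with other genes, chiefly its copies Dnah7a and Dnah7c. Dnah10 had 22 reads in Spib_KO and 20 in WT. The light chain gene Dnal4 had 17.4 CPM in Spib_KO and 15.7 CPM in WT, a ratio of 0.15 (-0.09 to 0.39), and Dnal1 had 7 reads in Spib_KO and 23 reads in WT.

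Defining genes of motile ciliated cells were near 0 in both libraries. Foxj1, the master regulator of motile cilia, had 5 reads in Spib_KO and 1 in WT, and 4 ciliated cell markers outside the dynein family summed to 1.52 CPM in Spib_KO and 2.28 CPM in WT, with 0 measured. Of 30 genes in the table for axonemal assembly and motile cilia, 9 were measured and 0 called, with a median log2 ratio of -0.08. The one furthest from 0 was Rsph9, a radial spoke gene, with 174 reads in Spib_KO and 372 in WT, a ratio of -1.03 (-1.30 to -0.76). Rsph3a, another spoke gene, had 506 reads in Spib_KO and 707 reads in WT.

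The end-binding proteins, which track growing plus ends, were Mapre1 and Mapre2 with little Mapre3. Mapre1 had 160 CPM in Spib_KO and 155 CPM in WT, a log2 ratio of 0.05 (-0.03 to 0.12), and Mapre2 had 94.3 CPM in Spib_KO and 78.1 CPM in WT, a ratio of 0.27 (0.17 to 0.38). Mapre3, known mainly from neurons and muscle, had 104 reads in Spib_KO and 156 in WT, a ratio of -0.51 (-0.89 to -0.15). Stmn1 encodes stathmin, which binds free tubulin dimers and promotes shrinkage, and was the main stathmin gene, with 189 TPM in Spib_KO and 230 TPM in WT. Its counts gave 129 CPM in Spib_KO and 153 CPM in WT, a ratio of -0.24 (-0.32 to -0.16). Stmn3 had 0 reads in Spib_KO and 2 in WT.

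The genes that fold tubulin differed little between the libraries. Of 21 genes for the CCT chaperonin, prefoldin and tubulin cofactors, 21 were measured, 0 were called, 21 differed by less than 1.5-fold and the median log2 ratio was 0.04. Pfdn5, a prefoldin subunit, had 194 CPM in Spib_KO and 185 CPM in WT. Of 20 measured tubulin modifying enzymes 1 was lower and 0 higher, with a median of 0.04, and 14 of the 20 differed by less than 1.5-fold. The shares over all measured genes were 2.18% lower, 2.33% higher and 79.5% within 1.5-fold. The lower gene was Agbl1, of a family of carboxypeptidases that shorten glutamate side chains, with 4 reads in Spib_KO and 101 in WT, a ratio of -4.43 (-6.49 to -3.19). It passed the expression filter in WT alone. Svbp, the small partner of the enzymes that remove the terminal tyrosine of alpha-tubulin, had 70.2 CPM in Spib_KO and 140 CPM in WT, a ratio of -0.997 (-1.10 to -0.90), which is not past the rule. Vash2, one of those enzymes, had 5.94 CPM in Spib_KO and 6.22 CPM in WT.

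Proteins that bind along microtubules held both a higher and a lower gene. Of 16 measured genes 1 was higher, 1 was lower and 8 differed by less than 1.5-fold, and the median log2 ratio was -0.18. Over all measured genes 2.33% were higher, 2.18% were lower and 79.5% differed by less than 1.5-fold. Map2, a stabiliser known from dendrites, had 67 reads in Spib_KO and 317 in WT, a ratio of -2.17 (-2.58 to -1.79). Map7d1, which helps recruit conventional kinesin, had 109 reads in Spib_KO and 37 reads in WT, a ratio of 1.61 (1.08 to 2.21). Map2 passed the expression filter in WT alone and Map7d1 in Spib_KO alone. Dclk1, the microtubule-binding kinase used as a tuft cell marker, had 2100 CPM in Spib_KO and 2369 CPM in WT, a ratio of -0.17 (-0.19 to -0.15). In deposited TPM, Dclk1 had 811 TPM in Spib_KO and 1324 TPM in WT, a wider gap than in CPM, and the cause was not tested. Of 13 measured plus-end proteins and 5 measured severing enzymes 0 were called, with medians of -0.04 and -0.02. The most abundant plus-end gene in TPM was Nav2, with 122 CPM in Spib_KO and 202 CPM in WT, a ratio of -0.73 (-0.81 to -0.65), and Clip1 had 48.4 CPM in Spib_KO and 60.2 CPM in WT. The most abundant severing enzyme gene in TPM was Katna1, with 63.7 CPM in Spib_KO and 62.1 CPM in WT, a ratio of 0.04 (-0.08 to 0.16).

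**Figure D5:**
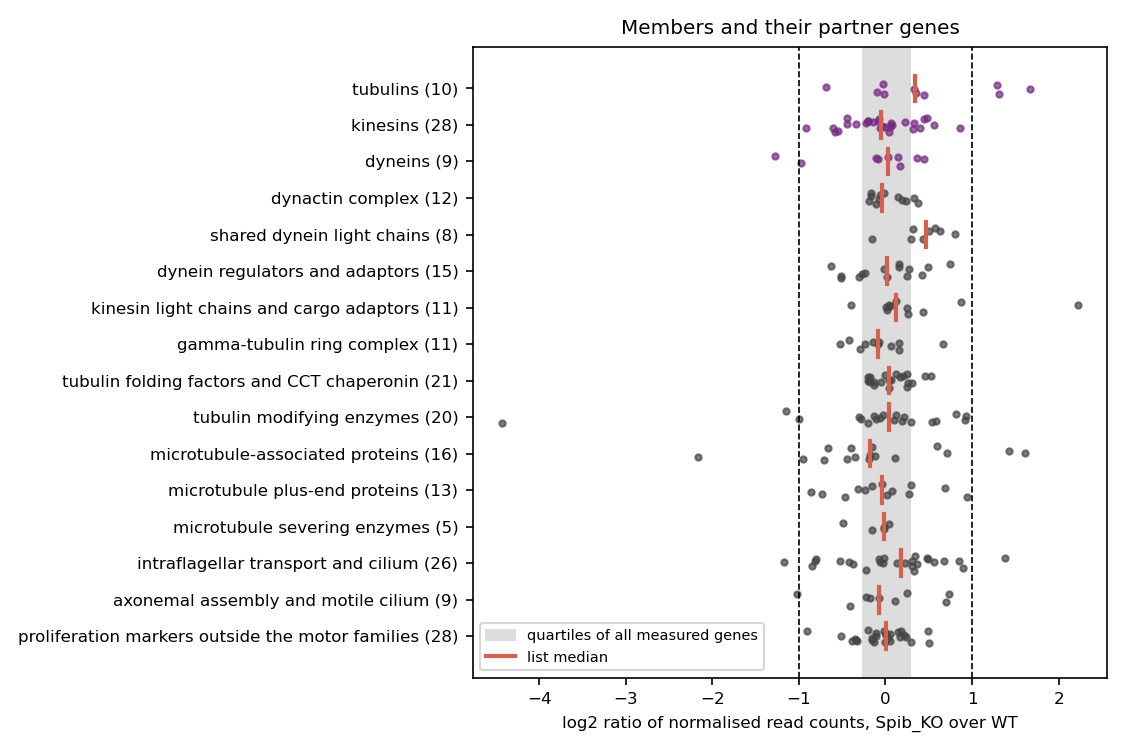
Log2 ratios (Spib_KO over WT) of measured tubulins, kinesins and dyneins (purple) and of their partner genes by list (grey), with list medians in red, the quartiles of all measured genes shaded and dashed lines at a 2-fold difference; numbers in brackets are measured genes. Medians lie between -0.18 and 0.47, and points past a dashed line need not be called, since the call uses the interval.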

How the data were processed

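Sorted tuft cells gave RNA by TRIzol, and libraries were built with SMART-Seq2 style cDNA amplification and a transposase, per the labels' protocols. HISAT and Bowtie2 2.2.3 and the build mm10 are named, per the submitters' processing notes. Which program counted the reads, on which annotation, was not given in the sources used here. The deposited read counts are expected counts: 18.6% of genes in Spib_KO and 19.0% in WT carry fractions, and all were rounded before use. The authors also deposited TPM and FPKM per gene, per the file headers. Both were used as alternatives, and TPM for levels between genes and shares of a family.

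With edgeR 4.0.16 (R 4.3.3), TMM scaling gave effective totals of 17161039 (Spib_KO) and 17996059 (WT). The log2 ratio used a prior count of 0.5 per library. Its 95% interval comes from a Clopper-Pearson interval for the Spib_KO share of both counts (exact, conditional on their sum), and intervals of CPM are exact Poisson intervals. Python 3.11.15, scipy 1.17.1, pandas 2.3.3 and matplotlib 3.10.9 were used.

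The members, partner lists, marker lists and kinesin groups were chosen with earlier results of these data known. Values were given for called members, the 4 most abundant measured members by TPM of each family, members at least 1.5-fold apart with an interval that leaves out 0, members with 10 reads or more in 1 library and 0 in the other, and the members nearest the threshold. For each partner list the called genes or the most abundant were named, and marker lists were given mainly as counts and sums. Other genes named were chosen after their values were seen. All 81 members had a position in the RefSeq table of GRCm38.p6, the assembly mm10 stands for, and 65 had a promoter there. Exon overlaps and shared 50-base windows come from GENCODE M21 transcripts, the longest coding transcript of each member against all other genes.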

Additional observations from a re-analysis of the deposited data

How the results depend on the processing

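No paired analysis was possible because each genotype has 1 library, and no replicate could be left out. Scaling by DESeq2 1.42.0 size factors, total counts or the upper quartile, and a CPM minimum of 20, each gave 2 members higher, Tubb2a and Tubg2, and 0 lower. Tubb2a, with 11.9 CPM in WT, and Tubg2, with 13.9 CPM in WT, pass that minimum in Spib_KO alone, where they are higher. That minimum is therefore no check on their calls. A prior count of 5 enters the ratio but not the interval, so it could not change a call. Deposited TPM or FPKM as log2(value + 1) (for TPM also with 0.1) also gave these 2 higher and 0 lower. There a 2-fold ratio without an interval was the rule, among the 34 members with at least 5 TPM or FPKM in either library. The median log2 ratio of measured members stayed between -0.06 and 0.05 under all 12 alternatives. The point estimate and the 1.5-fold bound change only the call, so they could not move this median. The counts moved where the rule admitted more genes. Without a filter on low values, 4 members were higher, adding Kif5a and Kif6, and 3 lower, Dnah5, Dnah7b and Kif12. With a 1.5-fold bound, 4 were higher, adding Tube1 and Kif21a, and 3 lower, Dnah6, Dnah2 and Tuba4a. By the point estimate 3 were higher, adding Tube1, and 1 lower, Dnah2. Leaving out, as an alternative added after seeing the data, the 17 measured members whose deposited counts are not whole gave 0 higher and 0 lower, because Tubb2a and Tubg2 are both among them. Over all genes, with 250 higher and 233 lower, the counts were 595 higher and 716 lower without a filter, 598 and 591 with a 1.5-fold bound, 425 and 419 by the point estimate, and 101 and 106 with a CPM minimum of 20. Under the separate rule for deposited values they were 203 and 256 of 9106 genes in TPM, and 165 and 226 of 8541 genes in FPKM. Of 583 values for 53 named members, 1 changed sign, from a ratio of 0.004 in size, and 19 left their counting interval. The 19 arose with a prior count of 5 or with deposited TPM or FPKM, and the cause was not tested. The 583 include settings that change only the filter, the bound or the use of the interval. Those settings leave every ratio as it was, so their values could not differ. With 1 library per genotype, variation between mice cannot be separated from any difference.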

Other observations

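Several genes of the cilium, of tubulin modification and of microtubule binding that were not called lay on both sides of 0. Wdr19, a subunit of the IFT-A complex of retrograde transport in cilia, had 185 reads in Spib_KO and 74 in WT, a log2 ratio of 1.38 (0.99 to 1.80). Other subunits of the same complex were Ift122, with 160 reads in Spib_KO and 296 in WT, a ratio of -0.82 (-1.11 to -0.54), and Ift140, with 529 reads in Spib_KO and 580 in WT. Tulp3, an adaptor that works with this complex, had 46 reads in Spib_KO and 8 in WT and was under the filter. Among the enzymes that add side chains to tubulin, Ttll8, a glycylase, had 54.3 CPM in Spib_KO and 28.7 CPM in WT, a ratio of 0.92 (0.76 to 1.08), and Ttll11, a glutamylase, had 13.6 CPM in Spib_KO and 7.17 CPM in WT, a ratio of 0.93 (0.61 to 1.25). Tpgs2, a subunit of a glutamylase complex, had 5.07 CPM in Spib_KO and 11.3 CPM in WT, a ratio of -1.15 (-1.53 to -0.79). Dclk2, a relative of Dclk1, had 103 reads in Spib_KO and 40 in WT, a ratio of 1.42 (0.89 to 1.998), and the microtubule-binding gene Eml6 had 745 reads in Spib_KO and 1512 in WT, a ratio of -0.95 (-1.08 to -0.83). These genes were picked for how far they lay from 0, so their values are a description and no pattern was tested.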
